A study of Homo sapiens with 5 samples.

Results

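The genes described here are 35 named human genes of the hypoxia response and of glycolysis. They comprise 15 genes of the HIF (hypoxia-inducible factor) pathway and its targets and 20 genes of glucose uptake and breakdown. They were taken by symbol, and the list was chosen with earlier results of these data known. Of the 19775 genes with a probe set of their own on the array, 34 are members, with 79 such probe sets and 2 more that SLC2A3 shares with its paralogue SLC2A14. CA9, a cell-surface carbonic anhydrase, has no probe set named here. All 34 were measured in cells of the human Ewing sarcoma line MHH-ES-1, 48 h after lipid transfection of a synthetic RNA at 50 nM. There were 2 arrays of cells given a miR-483-5p mimic, 1 array of cells given a miR-483-3p mimic and 2 arrays of cells given a scrambled control. A mimic is a short duplex that supplies 1 chosen microRNA arm. No label names a low-oxygen culture. The second array of a group is labelled as a repeat, with no word on separate cultures, so the p-values rest on array-to-array spread alone, and that spread may be technical. Values are deposited Affymetrix signals on a linear scale, and differences are in log2 units after 32 was added to each signal, so changes of dim genes are understated. In RNA from a whole culture, fewer cells of a kind and less RNA per cell cannot be told apart.

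When oxygen is plentiful, the EGLN prolyl hydroxylases mark the HIF alpha subunits for destruction through VHL. When oxygen is scarce, the stabilised subunits pair with ARNT and bind hypoxia response elements near genes for blood vessel growth, acid export, mitophagy and glucose use. Most of the glycolytic chain belongs to that target set, and many tumour cells run glycolysis strongly with oxygen present, under the control of MYC, mTOR and other regulators as well. The study's design asks what each arm of miR-483 changes in these cells. The members give the part of that question that concerns oxygen-linked and glycolytic transcripts.

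The hypoxia response element has the core ACGTG or GCGTG, found near an annotated start in 28 of the 31 members with promoter windows. The 5 member promoters shown are examples picked by name, each at the stretch that holds the most matches. Each line is a stretch of 40 bases, 5′ to 3′ on the gene's own strand, from RefSeq on GRCh38.p14. Capitals mark ACGTG or GCGTG on either strand, with overlapping matches run together.
ADM, chr11:10304954-10304993, plus strand: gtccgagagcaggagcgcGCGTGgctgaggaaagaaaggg
BNIP3, chr10:131982032-131982071, minus strand: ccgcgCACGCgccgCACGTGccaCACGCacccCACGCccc
PGK1, chrX:78104032-78104071, plus strand: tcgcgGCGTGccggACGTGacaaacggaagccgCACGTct
ENO2, chr12:6914444-6914483, plus strand: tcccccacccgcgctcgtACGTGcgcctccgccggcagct
LDHA, chr11:18394463-18394502, plus strand: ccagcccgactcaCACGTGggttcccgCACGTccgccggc
All 5 stretches lie upstream of the annotated start, at positions -119 to -80 from it in ADM, -148 to -109 in BNIP3, -216 to -177 in PGK1, -136 to -97 in ENO2 and -100 to -61 in LDHA.

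Windows of 300 bases, from 250 before to 50 after a start, were at hand for 31 of the members, 55 windows in all. ACGTG on either strand stood in 22 of these windows, 40% of them, against 21.4% of all 35116 windows searched. With GCGTG also accepted the counts were 37 windows, or 67.3%, against 48.4%. A match is a description of letters and not a measured binding site.

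No member passed the test in any comparison. limma's moderated test ran over 32768 probe sets whose mean over the 5 arrays reached a signal of at least 27.2, and it called 0 of them, 0% of the array and none of the member probe sets, at an adjusted p under 0.05 for miR-483-5p against control, for miR-483-3p against control and for miR-483-5p against miR-483-3p. The lowest adjusted p over all probe sets was 0.495, 0.712 and 0.785 in those comparisons. Of the 81 member probe sets, 69 reached the filter and 12 did not. All 20 glycolysis genes and 14 of the 15 HIF genes had at least 1 probe set that reached it. The values below are therefore descriptions of levels and of differences that did not clear the error of the design.

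The cells carried the markers of their label. All 7 Ewing sarcoma markers chosen (CD99, NKX2-2, STEAP1, PRKCB, LIPI, CCND1 and FCGRT) lay above the filter, with summed signals of 18253.3 to 19532.1 with miR-483-5p, 17809.8 with miR-483-3p and 18313.8 to 19389.9 in the control. Single markers differed in both directions with miR-483-5p, with LIPI at -0.53, FCGRT at -0.41 and CCND1 at 0.40 (limma adjusted p = 0.532 to 0.582). The miR-483-5p and control arrays did not overlap in 5 of the 7 (71.4%), against 42.5% of all genes tested. The part of these markers in any member's value was not tested. All 3 leukocyte markers, 2 of 3 epithelial markers and 2 of 3 endothelial markers had no probe set of their own above it. Summed epithelial signals were 59.5 to 59.6 with miR-483-5p, 78.3 with miR-483-3p and 84.2 to 112.5 in the control, which was likewise not tested. The ratio of the GAPDH control probe sets at the 3′ and 5′ ends, which tracks RNA integrity, stood at 1.094 and 1.102 for miR-483-5p, 1.064 for miR-483-3p and 1.016 and 0.9963 for the controls.

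In their brightest probe sets, most HIF genes had slightly higher signals with miR-483-5p than in control cells. Each gene is represented by its brightest probe set. Of the 14 measured HIF genes, 12 were above the control with miR-483-5p and 2 were below it, with a median log2 difference of 0.14 and a range of -0.21 to 0.44. Over all 14591 genes tested the median was -0.01, and 48.5% were higher. Other HIF probe sets above the filter went both ways, as in VEGFA (0.30, -0.12 and 0.14) and CA12 (-0.33, 0.37 and -0.06). Over all 69 member probe sets of both kinds, 40 were higher and 29 lower. Median deviations of the 14 genes from their 5-array means were 0.103 in the first miR-483-5p array and -0.015 in the repeat. In the controls they were -0.044 and -0.021. At an unadjusted p under 0.05, 2 HIF genes were higher, EGLN3 and ADM, and none was lower. Of all genes tested, 4.24% were higher and 4.45% lower at that p. Over the 69 member probe sets of both kinds, 3 were higher and 1 lower, while 4.06% of all probe sets were higher and 4.27% lower. In both miR-483-5p arrays the signal exceeded both controls in 4 of the 14 genes (EGLN3, ADM, NDRG1 and ANKRD37) and below both in 1 (BNIP3L), against 18.5% above and 21.2% below over all probe sets.

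**Figure D1:**
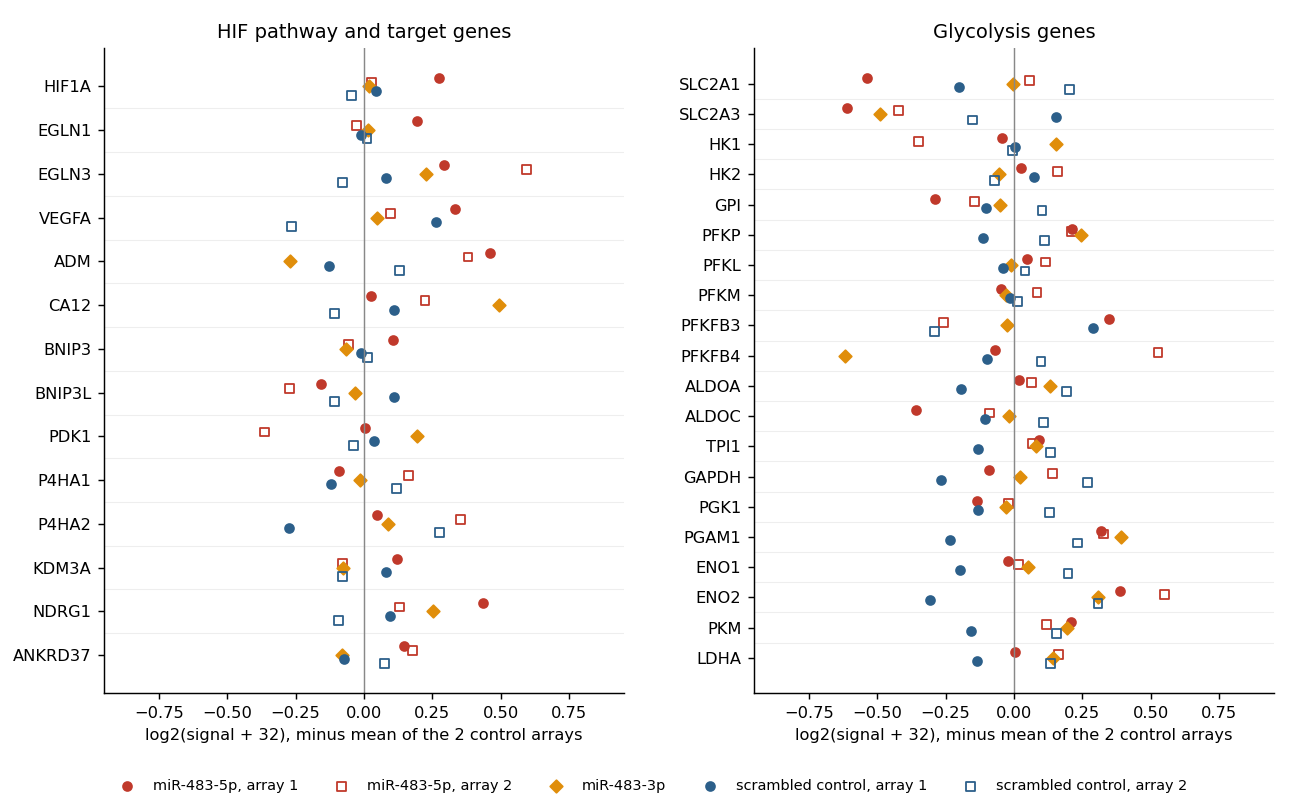
Each member's log2(signal + 32) in each of the 5 arrays, as the deviation from the mean of the 2 control arrays, with the HIF pathway and target genes on the left and the glycolysis genes on the right; filled and open symbols are the first and repeat arrays. EGLN3, ADM and ENO2 have both miR-483-5p arrays above both controls, SLC2A3 has both below, and in most of the lower glycolysis rows the first control array lies furthest left.

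The oxygen-sensing members differed most in EGLN3. HIF1A, the oxygen-labile subunit of the factor, had signals of 2279.5 and 1916.0 with miR-483-5p, 1900.5 with miR-483-3p, against 1938.8 and 1818.3 in the control. The miR-483-5p and control arrays overlapped, and the log2 difference was 0.15 (SE 0.17). EGLN1, the main hydroxylase that targets HIF1A, differed by 0.08 in its brightest probe set and by 0.00 and 0.11 in 2 others. EGLN3, a hydroxylase whose gene is itself a HIF target, had signals of 53.8 and 73.8 with miR-483-5p, 50.0 with miR-483-3p, against 42.0 and 34.3 in the control. Both miR-483-5p arrays were above both controls, and the miR-483-3p array lay between the groups. The means were 63.8 ± 14.1 with miR-483-5p, against 38.2 ± 5.45 with the scrambled RNA (SD, n = 2 each). The log2 difference of EGLN3 was 0.44 (95% interval 0.02 to 0.86, limma unadjusted p = 0.0406, adjusted p = 0.591). Its other probe set was under the filter, at 22.9 and 47.1 with miR-483-5p, 14.9 with miR-483-3p, against 6.2 and 39.9 in the control, where the groups overlapped.

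The secreted factors are ADM, with 1 probe set, and VEGFA, with 4. ADM encodes adrenomedullin, a vasodilator peptide, and had signals of 329.0 and 309.2 with miR-483-5p, 185.1 with miR-483-3p, against 207.8 and 254.6 in the control. The miR-483-5p arrays were the highest of the 5 and the miR-483-3p array was the lowest. The means were 319 ± 14 with miR-483-5p, against 231 ± 33.1 with the scrambled RNA (SD, n = 2 each). ADM differed from the control by 0.42 with miR-483-5p (95% interval 0.03 to 0.82, limma unadjusted p = 0.0401, adjusted p = 0.591) and by -0.27 with miR-483-3p (adjusted p = 0.966). Between the arms, miR-483-5p minus miR-483-3p was 0.69 for ADM (SE 0.20, limma unadjusted p = 0.0120, adjusted p = 0.797), with no replicate of the miR-483-3p array behind it.

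VEGFA, the vascular growth factor, has probe sets that disagreed in sign. They differed from the control by 0.22, 0.30, -0.12 and 0.14 with miR-483-5p. The brightest read 1281.0 and 1083.1 with miR-483-5p, 1044.4 with miR-483-3p, against 1218.5 and 835.9 in the control, so the groups overlapped. The control arrays alone differed by 0.53 in that probe set. The probe set at 0.30 read 688.1 and 793.1 with miR-483-5p, 617.3 with miR-483-3p, against 588.4 and 601.3 in the control. There both miR-483-5p arrays lay above the controls, with a limma unadjusted p = 0.103.

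CA12, a membrane carbonic anhydrase that helps cells export acid, was the only acid-base member measured, and its probe sets disagreed. The brightest read 111.5 and 132.3 with miR-483-5p, 166.3 with miR-483-3p, against 119.8 and 98.6 in the control. The miR-483-3p array was the highest of the 5, and the miR-483-5p and control arrays overlapped. Its log2 difference was 0.49 with miR-483-3p (95% interval 0.00 to 0.99, limma unadjusted p = 0.0495, adjusted p = 0.889) and 0.13 with miR-483-5p. The 3 other CA12 probe sets above the filter differed by -0.50, 0.14 and 0.15 with miR-483-3p and by -0.33, 0.37 and -0.06 with miR-483-5p, and 3 more were under the filter.

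Among the mitochondrial members the values were flat or slightly lower with the 5p arm. BNIP3, a mitophagy receptor, differed from the control by 0.02 with miR-483-5p and by -0.06 with miR-483-3p, and its second probe set by -0.04 and -0.03. Its relative BNIP3L read 946.1 and 870.8 with miR-483-5p, 1033.6 with miR-483-3p, against 1143.8 and 979.0 in the control. Both miR-483-5p arrays were below both controls, at a log2 difference of -0.21 (adjusted p = 0.754), and the second BNIP3L probe set gave -0.15. PDK1 encodes a kinase that keeps pyruvate out of the mitochondrion, and it read 156.9 and 114.2 with miR-483-5p, 183.3 with miR-483-3p, against 161.2 and 151.5 in the control. The miR-483-3p array was the highest, 1 miR-483-5p array was the lowest and the other lay between the controls. PDK1 differed by -0.18 with miR-483-5p, by 0.19 with miR-483-3p and by -0.37 between the arms (limma adjusted p = 0.905). A dim second PDK1 probe set gave -0.33 with miR-483-5p and -0.08 with miR-483-3p. There both miR-483-5p arrays lay below both controls, which differed from each other by -0.57.

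The brightest probe sets of the remaining HIF targets differed by 0.02 to 0.28 with miR-483-5p. NDRG1, a stress-induced growth regulator, read 85.0 and 62.7 with miR-483-5p, 71.0 with miR-483-3p, against 60.3 and 49.0 in the control. Both miR-483-5p arrays and the miR-483-3p array lay above both controls, with log2 differences of 0.28 (adjusted p = 0.706) and 0.25 (adjusted p = 0.971). ANKRD37, an ankyrin repeat protein, read 62.6 and 64.7 with miR-483-5p, 48.9 with miR-483-3p, against 49.2 and 57.9 in the control, a difference of 0.16 for miR-483-5p with no overlap. The collagen prolyl hydroxylases P4HA1 and P4HA2 differed by 0.03 and 0.20 and the histone demethylase KDM3A by 0.02, all with overlapping arrays. The control arrays differed by -0.55 from each other in P4HA2, first minus repeat.

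**Figure D2:**
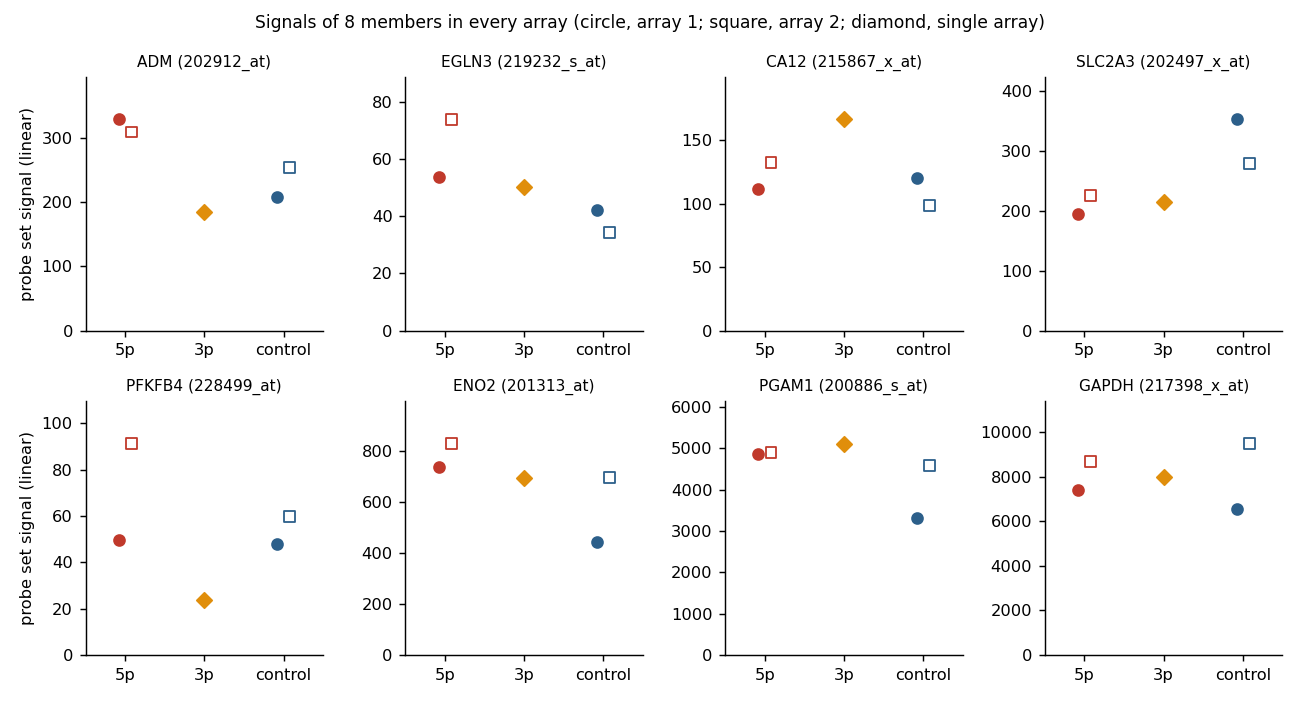
Probe set signals on a linear axis from 0 for 8 members in each array, with miR-483-5p on the left, miR-483-3p in the middle and the scrambled control on the right of each panel; each point is 1 array. The miR-483-5p arrays of ADM, at 329.0 and 309.2, stand above the 207.8 and 254.6 of the control, whereas PGAM1 and GAPDH show a low first control array, at 3308.1 and 6537.3.

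The glycolysis genes showed no common direction with miR-483-5p. Of 20 measured, 13 were higher and 7 lower than in the control, with a median log2 difference of 0.04 and a range of -0.52 to 0.47. At an unadjusted p under 0.05, 1 of the 20 was lower (SLC2A3) and none was higher, against 4.45% and 4.24% of all genes tested. The arrays did not overlap in 4 genes that were higher (PFKP, PFKL, PGAM1 and ENO2) and in 3 that were lower (SLC2A3, HK1 and GPI). That is 35% of the list, against 42.5% of all genes tested.

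GLUT1 and GLUT3 carry glucose into cells. SLC2A3, the gene for GLUT3, read 195.2 and 226.5 with miR-483-5p, 214.7 with miR-483-3p, against 353.3 and 279.6 in the control. All 3 mimic arrays lay below both controls. The means were 211 ± 22.1 with miR-483-5p, against 316 ± 52.1 with the scrambled RNA (SD, n = 2 each). SLC2A3 differed by -0.52 with miR-483-5p (95% interval -0.94 to -0.09, limma unadjusted p = 0.0242, adjusted p = 0.565) and by -0.49 with miR-483-3p (adjusted p = 0.899). Its 2 other probe sets gave -0.37 and -0.09 with miR-483-5p, and -0.34 and -0.46 with miR-483-3p. The 2 probe sets shared with SLC2A14, which cannot separate the paralogues, gave -0.11 and -0.28 with miR-483-5p, and -0.47 and -0.08 with miR-483-3p. All 5 were thus lower than the control with both arms, by unequal amounts, and the one at -0.09 with miR-483-5p had a difference of 0.78 between the control arrays alone. SLC2A1, the gene for GLUT1, read 156.2 and 252.2 with miR-483-5p, 240.6 with miR-483-3p, against 205.6 and 282.5 in the control. Those groups overlapped, and the second SLC2A1 probe set differed by 0.11 with miR-483-5p and 0.24 with miR-483-3p.

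The brightest probe sets of the enzymes that trap and commit glucose differed by at most 0.23 in size with miR-483-5p. HK1 and HK2, the hexokinases, differed by -0.20 and 0.09 with miR-483-5p, and HK1 read 226.1 and 176.9 with miR-483-5p, 263.8 with miR-483-3p, against 234.9 and 233.0 in the control. The HK1 controls were almost equal, both miR-483-5p arrays lay below them and the miR-483-3p array above. GPI, the glucose-6-phosphate isomerase, differed by -0.22 with both miR-483-5p arrays below both controls. The phosphofructokinase subunits PFKP, PFKL and PFKM differed by 0.21, 0.08 and 0.02. The second PFKL probe set went the other way, at -0.31, with readings of 303.8 and 364.6 with miR-483-5p, 441.1 with miR-483-3p, against 363.1 and 486.4 in the control, which overlapped. A dimmer PFKP probe set separated the arms by 0.54 (limma unadjusted p = 0.0350), and the brightest gave -0.04.

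PFKFB3 and PFKFB4 make fructose 2,6-bisphosphate, the activator of phosphofructokinase. PFKFB4 read 49.5 and 91.2 with miR-483-5p, 23.8 with miR-483-3p, against 47.9 and 59.6 in the control. The miR-483-3p array was the lowest of the 5, under the filter's 27.2, and the miR-483-5p arrays overlapped the controls. PFKFB4 differed by 0.23 with miR-483-5p, by -0.62 with miR-483-3p (adjusted p = 0.901) and by 0.84 between the arms (SE 0.28, limma unadjusted p = 0.0201, adjusted p = 0.832). PFKFB3 had a pair of readings in each replicated group that spread widely, 491.8 and 312.7 with miR-483-5p, against 471.9 and 304.9 in the control, while the miR-483-3p array read 373.1. The first array was the brighter in both groups, and the difference for miR-483-5p was 0.04 (SE 0.27).

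Among the brightest probe sets from aldolase to pyruvate kinase, the largest difference was that of ENO2 with miR-483-5p and that of PGAM1 with miR-483-3p. ENO2, the neuronal enolase, read 737.6 and 828.3 with miR-483-5p, 695.6 with miR-483-3p, against 443.1 and 694.9 in the control. All mimic arrays lay above both controls, the miR-483-3p array by less than 1 signal unit over the second control. ENO2 differed by 0.47 with miR-483-5p (95% interval -0.08 to 1.02, limma adjusted p = 0.643) and by 0.31 with miR-483-3p (adjusted p = 0.976). The first control array minus the second was -0.61 in ENO2, larger in size than either difference, and without the first control ENO2 differed by 0.16 with miR-483-5p. Its housekeeping relative ENO1 differed by 0.00 with miR-483-5p and 0.05 with miR-483-3p.

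PGAM1, the phosphoglycerate mutase, singled out after its values were seen, read 4856.0 and 4892.1 with miR-483-5p, 5111.4 with miR-483-3p, against 3308.1 and 4577.5 in the control. All mimic arrays lay above both controls, at differences of 0.32 (adjusted p = 0.696) and 0.39 (adjusted p = 0.956), and the controls differed from each other by -0.47. Aldolases ALDOA and ALDOC differed by 0.04 and -0.22 with miR-483-5p, TPI1 by 0.08, PGK1 by -0.08 and PKM by 0.16, with overlapping arrays in each. PKM, the pyruvate kinase, has a dim second probe set at 133.0 and 126.0 with miR-483-5p, 153.8 with miR-483-3p, against 104.3 and 54.3 in the control. It differed by 0.57 and 0.78 at limma unadjusted p = 0.0457 and 0.0318, with 0.66 between its control readings. The dim probe set of TPI1, the triose phosphate isomerase, read 52.1 and 33.5 with miR-483-5p, 88.7 with miR-483-3p, against 109.3 and 53.8 in the control. Both miR-483-5p arrays lay below the controls, at a difference of -0.57 (limma unadjusted p = 0.0714), and the controls differed by 0.72.

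LDHA, which turns pyruvate into lactate, read 6424.4 and 7183.0 with miR-483-5p, 7075.1 with miR-483-3p, against 5839.6 and 7045.2 in the control. Every mimic array was above the first control, and 1 miR-483-5p array was below the second. LDHA differed by 0.08 with miR-483-5p (95% interval -0.33 to 0.49) and by 0.14 with miR-483-3p (95% interval -0.36 to 0.64, limma adjusted p = 0.999).

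**Figure D3:**
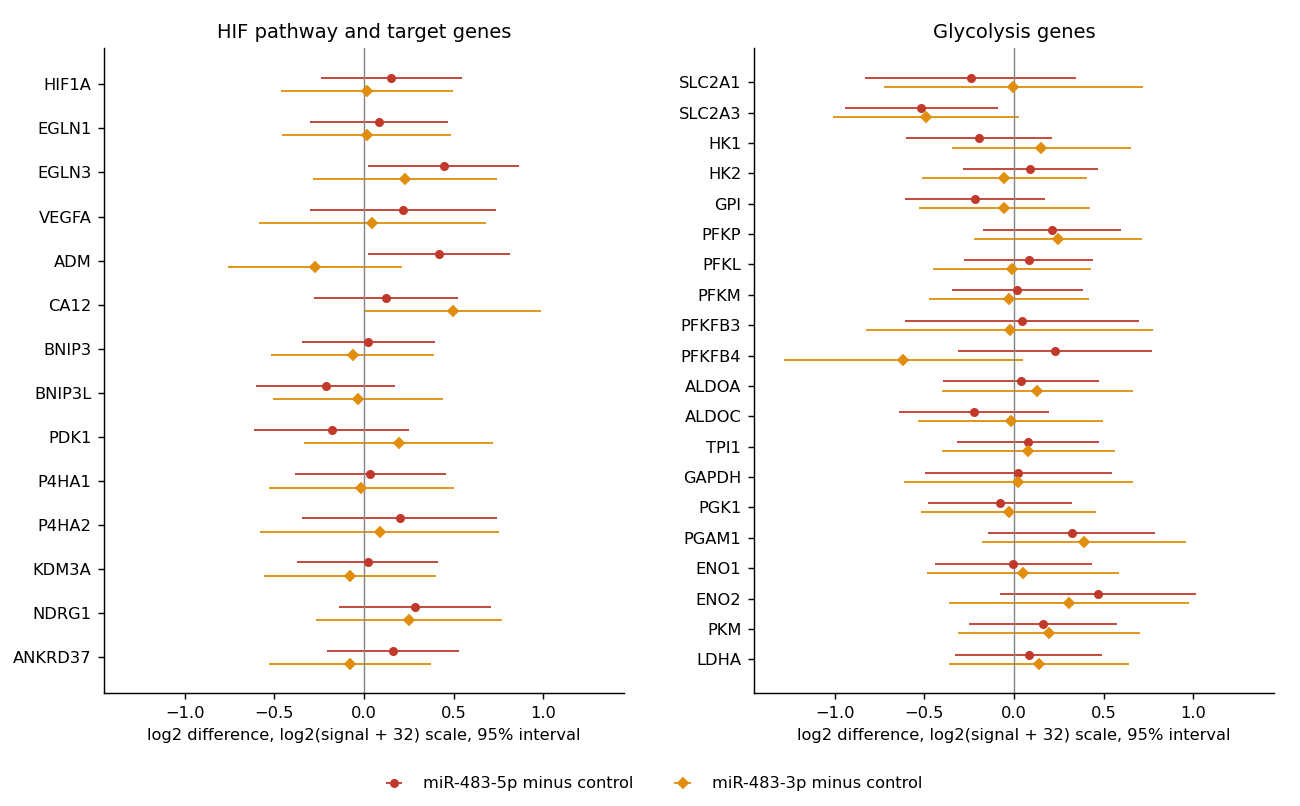
Log2 differences from the scrambled control for each member's brightest probe set, with miR-483-5p as circles and miR-483-3p as diamonds; bars are limma's 95% intervals before adjustment. For miR-483-5p only the intervals of EGLN3, ADM and SLC2A3 leave 0 out, and for miR-483-3p only that of CA12.

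With miR-483-3p the members were spread on both sides of the control. Of the HIF genes 8 were higher and 6 lower (median 0.02, range -0.27 to 0.49), and of the glycolysis genes 10 were higher and 10 lower (median 0.01, range -0.62 to 0.39). The median over all genes was 0.00. With each array centred on its median, 16 of the 20 glycolysis genes were higher, at a median of 0.05, with 0.03 over all genes. At an unadjusted p under 0.05, 2 of the 69 member probe sets were higher and 2 lower, while 2.01% of all probe sets were higher and 3.58% lower. The higher ones were the brightest of CA12 and the dim one of PKM. The lower ones were the SLC2A3 probe set at -0.47, shared with SLC2A14, and a dim ENO1 probe set. That ENO1 probe set read 45.2 and 57.5 with miR-483-5p, 32 with miR-483-3p, against 69.2 and 62.7 in the control. It differed by -0.61 with miR-483-3p (limma unadjusted p = 0.0184, the lowest of the members here, adjusted p = 0.800), and the brightest ENO1 probe set by 0.05. Over the 69 member probe sets, 21 lay above both controls and 15 below both, against 32.5% and 35.6% of all probe sets. With 1 array, whose spread is assumed to be that of the other groups, these values have no replicate of their own.

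Set directly against each other, the arms gave no difference that passed the test. For miR-483-5p minus miR-483-3p, 11 HIF genes were higher and 3 lower (median 0.09, or 0.01 without the first miR-483-5p array and 0.17 without the repeat), and 7 glycolysis genes were higher and 13 lower (median -0.03), with 0.00 over all genes. At an unadjusted p under 0.05, 3 member probe sets were higher, the brightest of ADM and PFKFB4 and the dimmer one of PFKP, and none was lower, while 3.27% of all probe sets were higher and 2.44% lower. The comparisons with the control share the same 2 control arrays, and this one shares its mimic arrays with them.

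The median difference of the glycolysis genes was larger in size between the control arrays than between the groups. The first control minus the second had a median of -0.24 over the 20 genes, with 16 lower in the first, and the first was the lowest of all 5 arrays for 10 of them. The miR-483-5p pair went the same way by less, with a first minus repeat median of -0.12 and 15 of the 20 lower in the first. The 14 HIF genes had a median of 0.08, with 6 lower. In 8 glycolysis genes whose mean signal exceeded 3000 (ALDOA, TPI1, GAPDH, PGK1, PGAM1, ENO1, PKM and LDHA), a limit set after the values were seen, all 8 were lower in the first control, at a median of -0.35. It was the lowest of the 5 arrays in 7 of them. The same was seen outside glycolysis, where 323 of 346 other genes over 3000 (93.4%) were lower in the first control, at a median of -0.23, against 50% and a median of 0.00 over all other genes. In the miR-483-5p pair the median was -0.04 over the 8 genes and -0.02 over the 346.

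GAPDH, the glyceraldehyde-3-phosphate dehydrogenase often taken as a loading reference, shows the pattern. It read 7388.2 and 8692.9 with miR-483-5p, 8003.0 with miR-483-3p, against 6537.3 and 9488.2 in the control. The controls were the lowest and the highest of the 5 arrays. GAPDH differed from the control by 0.02 with either arm, while its controls differed by -0.54. The brightest reading on the first control array was 9818.4, against 11694.7 to 13200.8 on the other 4, although every array had been scaled to a trimmed mean of 150.

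The sign of the glycolysis median depended on which array was left out. With miR-483-5p it was 0.16 against the first control alone and -0.05 against the second alone. With 1 miR-483-5p array left out it came to 0.08 (first) or -0.01 (repeat). With miR-483-3p it was 0.17 against the first control and -0.05 against the second. For the 14 HIF genes with miR-483-5p the medians were 0.10 against either control. Over these genes the first miR-483-5p array minus the repeat had a median of 0.14, the size of the group difference of 0.14. After quantile normalization, which forces the arrays to 1 distribution, the first minus the second control was -0.09 over the 20 glycolysis genes, with 14 lower, and -0.01 over the other bright genes.

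**Figure D4:**
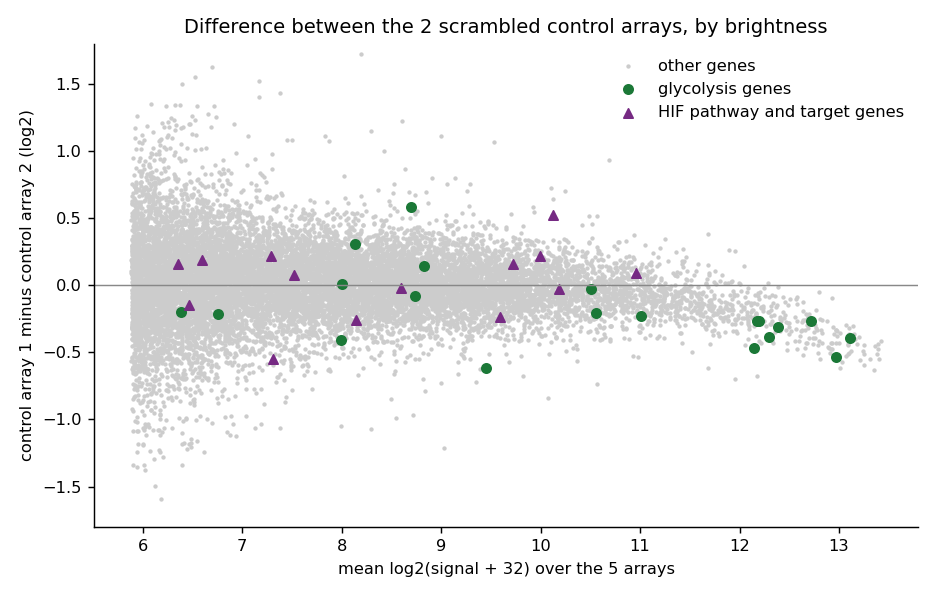
The first scrambled control array minus the second, in log2, against the mean log2(signal + 32) over the 5 arrays, for every gene tested; circles are glycolysis genes, triangles are HIF pathway and target genes and dots are other genes. At the bright end the cloud bends below 0, and the 8 bright glycolysis genes lie within it at a median of -0.35.

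Further genes of the same pathways were read from 5 lists, and none of their genes passed the test. Of 14 listed genes of the HIF machinery, 12 were tested, and 5 were higher and 7 lower with miR-483-5p (median -0.04), and 3 higher and 9 lower with miR-483-3p (median -0.14). Of 24 further HIF targets, 21 were tested, 10 higher and 11 lower with miR-483-5p (median -0.05), and 6 higher and 15 lower with miR-483-3p (median -0.09). The difference between these targets and the member HIF genes was not tested. The 11 tested genes of 21 other glycolysis and lactate genes had medians of 0.07 and -0.02, and the 11 tested of 13 for pyruvate entry into mitochondria had 0.04 and 0.04. Of 8 oxygen-independent regulators of glycolysis 6 were tested, 1 higher and 5 lower with miR-483-5p (median -0.17), and 2 higher and 4 lower with miR-483-3p (median -0.09).

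Of the 61 tested genes of these lists, 6 (9.84%) were lower than the control with miR-483-5p at an unadjusted p under 0.05, at limma adjusted p = 0.528 to 0.592, and none was higher. Over all genes tested, 4.45% were lower and 4.24% higher at that p. With miR-483-3p none of the 61 reached that p in either direction. MLXIP, a glucose-sensing transcription factor also called MondoA, read 143.6 and 160.8 with miR-483-5p, against 295.9 and 218.0 in the control, a difference of -0.64. TXNIP, its best-known target and a brake on glucose uptake, read 110.7 and 140.3 with miR-483-5p, against 180.4 and 187.4 in the control, a difference of -0.46. Both are among the oxygen-independent regulators, and in both genes the miR-483-5p arrays lay below the controls. The miR-483-3p array read 198.5 in MLXIP, also below both controls, at a difference of -0.31. In TXNIP it read 180.6, between the controls, at a difference of -0.02.

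The HIF targets WSB1, a ubiquitin ligase subunit, and FAM162A, a mitochondrial protein, differed by -0.58 and -0.44 with miR-483-5p. WSB1 read 570.9 and 460.8 with miR-483-5p, 666.5 with miR-483-3p, against 926.7 and 660.0 in the control, so its controls spread widely. FAM162A read 1066.6 and 1038.8 with miR-483-5p, 1308.6 with miR-483-3p, against 1424.2 and 1460.0 in the control. The 2 arrays of each replicated group lay close together and apart from the other group. The miR-483-3p array of FAM162A was also below both controls, at a difference of -0.14. ELOC, the elongin C subunit of the VHL ligase, differed by -0.57 with miR-483-5p. It read 727.0 and 521.7 with miR-483-5p, 839.9 with miR-483-3p, against 1088.7 and 795.0 in the control, with a wide spread in both pairs. PDK2, a sister kinase of PDK1, read 103.8 and 98.4 with miR-483-5p, 205.6 with miR-483-3p, against 169.8 and 136.7 in the control. It was lowest with the 5p arm and highest with the 3p arm, with differences of -0.47 from the control for miR-483-5p and -0.84 between the arms (limma unadjusted p = 0.00484, adjusted p = 0.785).

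The members were also divided by promoter motif. The 17 measured member genes with ACGTG in a promoter window had a median log2 difference of 0.04 with miR-483-5p, 13 of them higher, and the 13 without it had 0.15, 10 of them higher. With miR-483-3p the medians were -0.02 and 0.05, with 8 higher in each. No test was made between these groups.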

How the data were processed

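Biotin-labelled cRNA of MHH-ES-1 was hybridised to 5 Affymetrix 3′ expression arrays of the HG-U133 Plus 2 type. The authors deposited signal intensity per probe set on a linear scale; GCOS and Partek stand in the submitters' processing notes, and how signals were summarised is not given in the sources here.  The deposited intensity values had a trimmed mean of 150 on every array after 2% was trimmed at each end, so they were already scaled. Precision is limited by the number of arrays.

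Groups followed the labels. The values were taken as log2(signal + 32) and not normalized again. Of 54675 probe sets, 62 controls and those under the 40th percentile of mean log2 signal were left out. limma 3.58.1 in R 4.3.3 (lmFit and eBayes, 3 group means, all 5 arrays, 2 residual degrees of freedom, prior 4.66) gave two-sided p-values, adjusted by Benjamini-Hochberg over all 32768 probe sets. Probe sets were named from the platform annotation (41097 with 1 symbol, 1801 with several, 11777 with none). A gene is represented by its brightest probe set.

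The members and lists were chosen with earlier results of these data known. All members are named. Values in every array were due for members with an unadjusted p under 0.05 in the brightest probe set in any comparison and for the lowest p of each role; others shown in full were chosen after their values were seen. Related genes were named at an unadjusted p under 0.05. The fit was tested on data simulated with independent noise at the fit's own spread. Those data held no shift between arrays, so that check does not cover the shifts described above. Promoter windows came from RefSeq on GRCh38.p14. Figures were drawn with matplotlib 3.10.9.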

Additional observations from a re-analysis of the deposited data

How the results depend on the processing

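At an adjusted p under 0.05 no probe set and no member passed in any of the 3 comparisons under any alternative tried: median centring, quantile normalization, no filter or the 60th percentile, a pseudocount of 1 or 100, 1 probe set per gene, an intensity-trended prior, first and repeat arrays as a replicate block, and leaving out each paired array. The glycolysis median ranged from -0.054 to 0.157 for miR-483-5p against control and from -0.051 to 0.173 for miR-483-3p against control when an array was left out, and the replicate block gave 0.122 for miR-483-3p. The HIF median between the arms ranged from 0.01 without the first miR-483-5p array to 0.175 without the repeat. HIF genes higher with miR-483-5p numbered 9 of 14 without the first miR-483-5p array and 10 without either control. Glycolysis genes higher with miR-483-3p numbered 16 of 20 with median centring and with the block, and 15 without the second control, against 10. Member probe sets at an unadjusted p under 0.05 numbered 4 with miR-483-5p, 7 with the block and 1 without its repeat array. Over all probe sets that count was 2730, against 4196 with no filter, which tests more probe sets, 1563 with 1 per gene, and 1736 without the second control. For miR-483-3p it was 1834, against 3434, 957 and, at the 60th percentile, 1135. Between the arms it was 1872, against 3427, 970 and 1188. The cause of the shifts between arrays was not tested. First minus repeat correlated at r = 0.172 between the miR-483-5p and control pairs over probe sets, which are not independent, and the labels do not pair them. EGLN3 (0.24 to 0.72) and PFKFB4 between the arms (0.45 to 1.46) moved most with the pseudocount, and at the 60th percentile both fell under the filter. The number of arrays limits the precision.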
